A study of Mus musculus with 11 samples.

Results

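The genes described here are 10 members of the epidermal growth factor (EGF) family of signals and receptors in the mucosa of the mouse gastric corpus, the acid- and pepsinogen-secreting region of the stomach. They were taken by name from the gene table: the 7 ligands Egf, Tgfa, Areg, Ereg, Hbegf, Btc and Nrg1, and the 3 receptors Egfr, Erbb2 and Erbb3. All 10 were present among the 34866 genes of the table, and all 10 passed the filter on low counts that left 14889 genes for testing. RNA sequencing of polyadenylated transcripts had been done on 11 samples in 4 groups. The controls were labelled wild type (n = 2), and 3 engineered lines (n = 3 each) carried the genotype labels ATP4B-DTR, GIF-DTR or, with both constructs, GIF/ATP4B-DTR. DTR stands for the diphtheria toxin receptor, which makes the cells that carry it sensitive to the toxin; Atp4b encodes the beta subunit of the proton pump of acid-secreting parietal cells, and Gif encodes gastric intrinsic factor, a product of chief cells in the mouse. The lines were built to remove parietal cells, chief cells or both, as the series describes them. How each receptor construct was inserted, the toxin dose, the time after toxin, whether the controls received it, and the age and sex of the mice are not given in the sources used here, and the labels do not say whether libraries came from single animals, so that p-values measure only the spread between these samples.

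Ligands of this family are made as membrane-bound precursors, released by metalloproteases at the cell surface, and bind receptor tyrosine kinases of the ERBB class, which pair with each other and signal through the RAS-MAPK and PI3K-AKT cascades. In the stomach, transforming growth factor alpha and amphiregulin are made by the epithelium itself and act on its proliferation, its repair and its acid secretion. Erbb2 binds no ligand of its own and Erbb3 has little kinase activity, so that both act as partners within receptor pairs.

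Levels are given as CPM, the counts of a gene scaled to a common library total. Each library total was first multiplied by its TMM factor, the scaling factor of the edgeR fit. These factors were 0.797 and 0.864 in the controls and 0.947 to 1.118 in the lines. CPM in the controls is therefore raised relative to the lines, compared with scaling by library totals alone. Positions of libraries relative to the controls are stated on this scale only. Libraries held 20689262 to 27946423 counts. With the factors applied, 3 counts, the limit used for detection, correspond to 0.107 to 0.166 CPM. This limit and the counts cover counting error only. Atp4b averaged 4575 CPM in the controls, 599 in the ATP4B-DTR line, 2797 in GIF-DTR and 290 in the GIF/ATP4B-DTR line, and Gif averaged 1503, 637, 146 and 125 CPM, so that each targeted gene was lowest in the lines that name it; Gif in control 1 (702 CPM) lay below 2 of the 3 ATP4B-DTR libraries (824 and 755 CPM). The summed level of 9 parietal cell markers was 17728 to 19015 CPM in the controls, 3753 to 5400 in the ATP4B-DTR line, 8312 to 10607 in GIF-DTR and 1589 to 3048 in the GIF/ATP4B-DTR line. The corresponding sums of 6 chief cell markers were 85896 to 192479, 17004 to 62016, 5108 to 22615 and 2823 to 12425 CPM, with Lipf at 0 counts in every library. In bulk tissue, fewer cells of a type and less RNA per cell cannot be told apart. The mean log2 CPM of 4 Y-linked genes was 4.98 and 5.22 in the controls, 5.38 to 5.56 in the GIF/ATP4B-DTR line, 5.44 in ATP4B-DTR 1, -1.11 and -1.34 in ATP4B-DTR 2 and 3, and -1.39 to -0.91 in all 3 GIF-DTR libraries. The GIF-DTR genotype and this difference in Y-linked expression therefore cannot be told apart without the other lines.

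The promoters of Egf and Areg are shown because these were the ligands with the largest mean decrease and the largest mean increase of the 7. Egf (ENSMUSG00000028017.7) lies on the minus strand of chromosome 3 and Areg (ENSMUSG00000029378.5) on the plus strand of chromosome 5, in GRCm38. The 250 bases before each start are from RefSeq (GRCm38.p6), read 5′ to 3′ on the strand of the gene, at chr3:129755323-129755572 for Egf and chr5:91139349-91139598 for Areg. Capitals mark matches to the motifs searched.
Egf: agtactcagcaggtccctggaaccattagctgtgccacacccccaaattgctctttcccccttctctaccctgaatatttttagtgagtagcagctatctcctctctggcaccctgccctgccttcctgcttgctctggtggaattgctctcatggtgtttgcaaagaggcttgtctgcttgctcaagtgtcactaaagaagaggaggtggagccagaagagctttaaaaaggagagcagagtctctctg
Areg: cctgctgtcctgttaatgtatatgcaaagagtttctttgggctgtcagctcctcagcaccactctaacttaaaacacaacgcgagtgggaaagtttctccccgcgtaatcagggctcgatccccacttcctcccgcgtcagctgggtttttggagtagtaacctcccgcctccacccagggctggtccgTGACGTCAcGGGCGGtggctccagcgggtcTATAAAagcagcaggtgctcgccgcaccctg
The Areg promoter held a full cyclic AMP response element (TGACGTCA) 61 to 54 bases before the start, a GC box (GGGCGG) at 52 to 47 bases and a TATA box (TATAAA) at 31 to 26 bases. The Egf window held none of these letters, nor the AP-1 motif TGANTCA, on either strand, and had a GC content of 50.4% against 57.2% for Areg. Over 32851 mouse promoters of the same length, searched on both strands, 1.55% held the cyclic AMP response element, 32.7% the GC box, 12.4% the TATA box and 6.75% the AP-1 motif. A match is a description of the letters only. Of the 10 genes, 6 had a promoter entry; those of Tgfa and Egfr held GC boxes, and those of Btc and Erbb2 held none of the 4 motifs.

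Egf, the founding ligand of the family, was the only one of the 10 genes that passed the edgeR test in any comparison with the controls, and it fell in all 3 lines. Its level was 131 and 55.3 CPM in the controls. The 3 ATP4B-DTR libraries were at 1.58, 0.83 and 1.37 CPM, those of GIF-DTR at 5.06, 3.11 and 4.01 CPM, and those of GIF/ATP4B-DTR at 0.081, 1.07 and 1.28 CPM. All 9 libraries of the lines lay below both controls, and the lowest, GIF/ATP4B-DTR 1, held 2 counts, which is under the detection limit. The group means were 93.3 ± 53.8 CPM in the controls (SD, n = 2), 1.26 ± 0.385 in the ATP4B-DTR line, 4.06 ± 0.978 in the GIF-DTR line and 0.811 ± 0.641 in GIF/ATP4B-DTR (SD, n = 3 each).

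**Figure D1:**
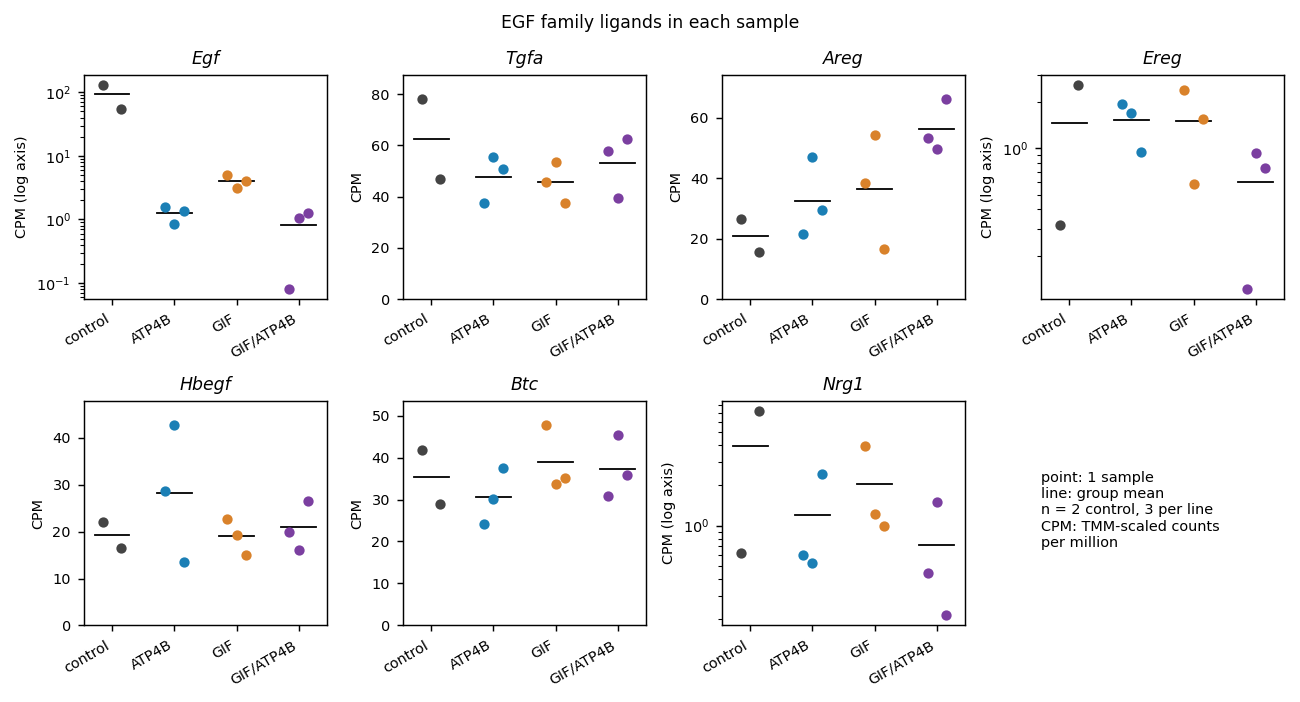
Level of each of the 7 ligands in every sample (CPM on the vertical axis, which is a log axis for Egf, Ereg and Nrg1), with samples as points and group means as lines. Egf is at 55.3 and 131 CPM in the controls and at most 5.06 CPM in any line, whereas for the other 6 ligands each line overlaps the controls or, for Areg in GIF/ATP4B-DTR, lies above both.

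By edgeR's quasi-likelihood test with Benjamini-Hochberg adjustment over all tested genes, Egf fell by 6.21 ± 0.65 (SE) on the log2 scale in ATP4B-DTR (adjusted p = 0.000517), a level 73.8-fold lower. In GIF-DTR it fell by 4.53 ± 0.59 (adjusted p = 0.00227), 23.0-fold lower, and in GIF/ATP4B-DTR by 6.82 ± 0.68 (adjusted p = 0.000161), 113-fold lower. The 95% confidence intervals of the log2 differences were -7.68 to -4.74, -5.86 to -3.19 and -8.35 to -5.30. Ordered from the most negative fitted difference upward, Egf stood 27th, 44th and 25th of 14889 genes. These 3 comparisons share the same 2 controls, which differed 2.38-fold from each other in Egf; without control 1 the log2 differences were -5.45, -3.77 and -6.07. With that Y-linked value added to the fit, the difference in GIF-DTR was -4.09 and did not pass the test (adjusted p = 0.102, against 8.19e-07 to 0.0143 under the other alternatives that tested Egf).

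Among the 10 genes, 1 was called in each comparison with the controls, and each time it was Egf. Over all tested genes, 21.6% were called in ATP4B-DTR against control, 16.8% in GIF-DTR and 33.6% in the GIF/ATP4B-DTR line, so that 1 of 10 is no larger a share than the background. In the lower direction alone, to which the 1 call belongs, the background was 9.39%, 6.82% and 15.4%, and in the higher direction, with 0 calls, 12.2%, 9.97% and 18.2%. The median log2 difference of the 10 genes was -0.24, -0.21 and -0.20, beside -0.01, -0.01 and -0.04 over all tested genes.

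Egf was also compared among the lines. The 3 GIF-DTR libraries (3.11 to 5.06 CPM) lay above all ATP4B-DTR libraries (0.83 to 1.58 CPM) and all GIF/ATP4B-DTR libraries (up to 1.28 CPM), while the last 2 groups overlapped. GIF-DTR exceeded ATP4B-DTR by 1.68 ± 0.59 on the log2 scale (edgeR, adjusted p = 0.363), and GIF/ATP4B-DTR differed from GIF-DTR by -2.30 ± 0.61 (adjusted p = 0.0991) and from ATP4B-DTR by -0.62 ± 0.67 (adjusted p = 0.787). None of these differences passed the edgeR test. The one between GIF/ATP4B-DTR and GIF-DTR passed with DESeq2's Wald test (adjusted p = 0.0327; 0.0327 to 0.743 over the alternatives). The interaction of the genotypes compares the step from ATP4B-DTR to GIF/ATP4B-DTR with the step from control to GIF-DTR. For Egf it was 3.91 ± 0.89 on the log2 scale (edgeR, adjusted p = 0.0823), the first step being -0.62 and the second -4.53. This interaction passed with DESeq2 (adjusted p = 0.0140) and in edgeR without GIF/ATP4B-DTR 1 (4.43, adjusted p = 0.0410), out of a range of 0.0140 to 0.633 over the alternatives.

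In these comparisons among the lines, 0 of the 10 genes were called by edgeR. The background was 0.49% of all tested genes for GIF-DTR against ATP4B-DTR, 0% for GIF/ATP4B-DTR against ATP4B-DTR, 2.53% for GIF/ATP4B-DTR against GIF-DTR and 0.651% for the interaction. At an unadjusted p under 0.05, 1, 0, 1 and 1 of the 10 genes stood out, and DESeq2 called 0, 0, 1 and 1.

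Marker lists of other cells were set beside Egf. The parietal cell sums above were in the same order of groups as Egf, with the controls highest and GIF-DTR next, whereas the chief cell sums ran from 17004 to 62016 CPM in ATP4B-DTR and from 5108 to 22615 CPM in the GIF-DTR line. A list of 6 salivary gland genes, kept because salivary tissue is rich in Egf in the mouse, summed to 26.8 and 27.2 CPM in the controls and to 6.16 to 20.2 CPM in the lines, with Dcpp1 and Bpifa2 at 0 counts and Smr3a at 3 counts or fewer in every library. Of 4 mucous neck cell markers, 1 was called higher in each line and 2, 1 and 2 were called lower (edgeR), and their sum overlapped between the controls (1159 to 1684 CPM) and each line (687 to 1883 CPM). The median log2 difference of this list was -0.69, -0.22 and -0.70 in the 3 lines. Muc6, 1 of the 4, encodes a gland mucin and was named after its values were seen. It was at 384 and 333 CPM in the controls, 28, 90.6 and 77.0 in ATP4B-DTR, 39.4, 19.7 and 27.1 in GIF-DTR, and 5.57, 8.76 and 15.2 in GIF/ATP4B-DTR. As for Egf, all 9 libraries of the lines were below both controls, and Muc6 fell, with log2 differences of -2.46 ± 0.52, -3.64 ± 0.53 and -5.18 ± 0.57 (SE; edgeR, adjusted p = 0.0102, 0.00352 and 0.000266). The sum of 5 B and plasma cell markers was 20.6 and 332 CPM in the controls and 0.282 to 18.4 CPM in the lines, with Ms4a1 at 3 counts or fewer in every library. The sum of 8 markers of SPEM, a metaplastic gland type, was 1183 and 1587 CPM in the controls and 1752 to 4013 CPM in the lines, all above the controls. The part of these cells in the Egf result was not tested.

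Areg encodes amphiregulin, a ligand of Egfr. Its levels were 26.4 and 15.6 CPM in the controls, 21.4, 47.0 and 29.4 in the ATP4B-DTR line, 38.6, 54.4 and 16.7 in the GIF-DTR line, and 53.3, 49.6 and 66.3 in the GIF/ATP4B-DTR line. All 3 GIF/ATP4B-DTR libraries lay above both controls, while 1 ATP4B-DTR and 1 GIF-DTR library lay within the control range. The difference from control was 0.63 ± 0.48 on the log2 scale in ATP4B-DTR (edgeR, adjusted p = 0.386), 0.80 ± 0.48 in GIF-DTR (adjusted p = 0.299) and 1.42 ± 0.49 in GIF/ATP4B-DTR (adjusted p = 0.0503), so that none passed the test. With the Y-linked value in the fit, the first 2 were 0.14 and 0.12. The third sits at the threshold: it passed under 7 of the alternatives, with adjusted p = 0.0487 with DESeq2's size factors and 0.00441 with DESeq2 itself, and its adjusted p reached 0.264 without control 2. Its 95% interval of 0.32 to 2.53 covers increases from slight to over 4-fold. The libraries with the highest Areg within ATP4B-DTR and GIF-DTR (replicate 2 of each) were also the highest of their group for the summed pit cell markers, at 97384 and 96076 CPM, beside 80979 and 128556 CPM in the controls.

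Tgfa, encoding transforming growth factor alpha, the ligand long studied in the stomach, did not pass in any comparison. It was at 78.2 and 46.8 CPM in the controls, 37.4, 55.3 and 50.6 in the ATP4B-DTR line, 45.6, 53.5 and 37.6 in the GIF-DTR line, and 57.9, 39.5 and 62.4 in the GIF/ATP4B-DTR line. All 4 groups overlapped. Its log2 differences from control were -0.39 ± 0.26, -0.46 ± 0.26 and -0.23 ± 0.26, with 95% intervals that reached down to -0.96, -1.03 and -0.81 and up to 0.19, 0.12 and 0.34.

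Btc, betacellulin, another epithelial ligand of Egfr, had the smallest ratio of highest to lowest library of the 7 ligands, 1.99-fold over the 11 samples, beside 2.09-fold for Tgfa. Its levels were 41.9 and 28.9 CPM in the controls, 24.1, 30.1 and 37.5 in the ATP4B-DTR line, 47.8, 33.6 and 35.1 in the GIF-DTR line, and 30.8, 45.5 and 35.7 in the GIF/ATP4B-DTR line. All 4 groups overlapped, and the log2 differences from control were -0.21 ± 0.24, 0.13 ± 0.24 and 0.08 ± 0.24, with 95% intervals within -0.74 to 0.67.

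Hbegf encodes heparin-binding EGF-like growth factor, whose membrane-bound human form is the diphtheria toxin receptor of these lines. The mouse gene was at 22.1 and 16.4 CPM in the controls, 28.6, 42.8 and 13.6 in the ATP4B-DTR line, 22.7, 19.2 and 15.1 in the GIF-DTR line, and 20.0, 16.1 and 26.6 in the GIF/ATP4B-DTR line. Every line had a library within or below the control range, and the highest values were in 2 ATP4B-DTR libraries. The log2 differences were 0.55 ± 0.41, -0.02 ± 0.40 and 0.12 ± 0.40, and none passed (edgeR, adjusted p = 0.365, 0.976 and 0.841). Reads of the human receptor could in principle be counted at the related mouse gene; this was not tested, as the transgene sequence was not used here.

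Ereg and Nrg1 were the ligands with the lowest mean CPM in the controls. Ereg, encoding epiregulin, was at 0.31 and 2.61 CPM in the controls (7 and 47 counts), 1.96, 1.71 and 0.95 in the ATP4B-DTR line, 2.41, 0.59 and 1.55 in the GIF-DTR line, and 0.12, 0.94 and 0.75 in the GIF/ATP4B-DTR line. Nrg1, encoding neuregulin 1, a ligand of Erbb3 that is typically made by stromal cells, was at 0.63 and 7.21 CPM in the controls (14 and 130 counts), 0.61, 0.53 and 2.44 in the ATP4B-DTR line, 3.93, 1.22 and 0.99 in the GIF-DTR line, and 0.44, 1.5 and 0.21 in the GIF/ATP4B-DTR line. The controls differed from each other 8.29-fold in Ereg and 11.5-fold in Nrg1, and every line overlapped them. The Nrg1 difference in GIF/ATP4B-DTR was -2.45 ± 1.10 on the log2 scale (edgeR, adjusted p = 0.112; 0.0370 to 0.944 over the alternatives). Without control 1 it was -3.33 and passed (adjusted p = 0.0370), and without control 2 it was 0.17. The sum of 6 fibroblast markers was 49.3 CPM in control 1 and 500.1 in control 2, 101 to 316 in the ATP4B-DTR line, 217 to 730 in GIF-DTR and 98.2 to 276 in the GIF/ATP4B-DTR line, with none of the 6 at 0, and the sum of 5 smooth muscle markers was 318 and 1906 CPM in the 2 controls. The highest Nrg1 values lay in the libraries with the highest fibroblast sums, control 2 and GIF-DTR 1, and the part of stromal RNA in the Nrg1 levels was not tested.

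Of the other genes of the family, Epgn, Nrg4, Nrg2, Nrg3 and Erbb4, the first 2 were tested. Epgn encodes epigen, an epithelial ligand of Egfr, and lies with Ereg, Areg and Btc in a cluster of 375.531 kb on chromosome 5 (91027464 to 91402994, GRCm38). It had 3 and 0 counts in the controls, 11, 28 and 24 in the ATP4B-DTR line, 7, 28 and 12 in the GIF-DTR line, and 6, 13 and 13 in the GIF/ATP4B-DTR line. Every library of the lines was above the controls, but the levels were low, at most 1.23 CPM. With both controls at or under the detection limit, Epgn passed the filter on low counts through the lines in which it was higher, so that its call gives no support beyond the counts themselves. Against a limit of 3 counts in each control library, the ATP4B-DTR mean was at least 6.06-fold higher, which passed (edgeR, adjusted p = 0.0267), and at least 4.23-fold and 2.79-fold higher in GIF-DTR and GIF/ATP4B-DTR, which did not (adjusted p = 0.0594 and 0.0830). The summed level of 6 squamous forestomach markers was 0.28 to 0.94 CPM in the controls and 2.15 to 20.4 in the ATP4B-DTR line. It was 0.952 to 1.37 in the GIF-DTR line and 1.37 to 4.10 in GIF/ATP4B-DTR. All libraries of the lines were above the controls, but the lowest of GIF-DTR only just (0.952 beside 0.943 CPM in control 1). Krt5, Trp63 and Krt6a were at 0 counts in every library, and only 1 gene of this list was tested. The part of such cells in the Epgn levels was not tested. Nrg4 was not called, with levels of 0.11 to 0.65 CPM. Nrg2 and Nrg3 had at most 9 counts and Erbb4 at most 1 count in any library, and they were not tested.

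None of the 3 receptors passed the test in any comparison. Erbb3, which Nrg1 binds, was at 273 and 188 CPM in the controls, 127, 209 and 136 in the ATP4B-DTR line, 117, 185 and 150 in the GIF-DTR line, and 212, 108 and 172 in the GIF/ATP4B-DTR line. Control 1 was the highest of all libraries, and 7 of the 9 libraries of the lines lay below both controls. The log2 differences were -0.55 ± 0.31, -0.62 ± 0.31 and -0.49 ± 0.31 (edgeR, adjusted p = 0.237, 0.204 and 0.243).

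**Figure D2:**
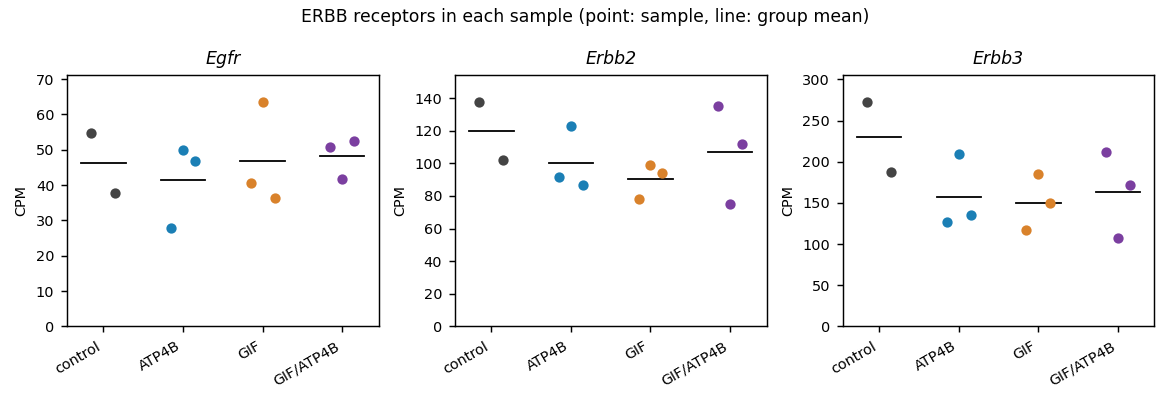
Level of Egfr, Erbb2 and Erbb3 in every sample (CPM on the vertical axis), with samples as points and group means as lines. Every line overlaps the controls in all 3 receptors except that the Erbb2 and Erbb3 values of GIF-DTR are all below both controls.

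Erbb2 was at 138 and 102 CPM in the controls, 91.5, 123 and 86.5 in the ATP4B-DTR line, 78.4, 98.9 and 94.3 in the GIF-DTR line, and 135, 74.9 and 112 in the GIF/ATP4B-DTR line. The 3 GIF-DTR libraries lay below both controls in Erbb2 as in Erbb3, and the log2 difference there was -0.40 ± 0.24 (edgeR, adjusted p = 0.283). Egfr, the receptor of Egf, Tgfa, Areg, Btc, Ereg and Hbegf, was at 54.6 and 37.9 CPM in the controls, 27.9, 49.8 and 46.9 in the ATP4B-DTR line, 40.5, 63.6 and 36.5 in the GIF-DTR line, and 50.9, 41.9 and 52.3 in the GIF/ATP4B-DTR line. All 4 groups overlapped, and its log2 differences were -0.16 ± 0.29, 0.02 ± 0.29 and 0.06 ± 0.29, with 95% intervals within -0.79 to 0.70. Egfr counts were fractional in 11 of 11 libraries, which marks reads that the estimate divided between genes, so its level is less certain than that of Erbb2 or Erbb3.

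**Figure D3:**
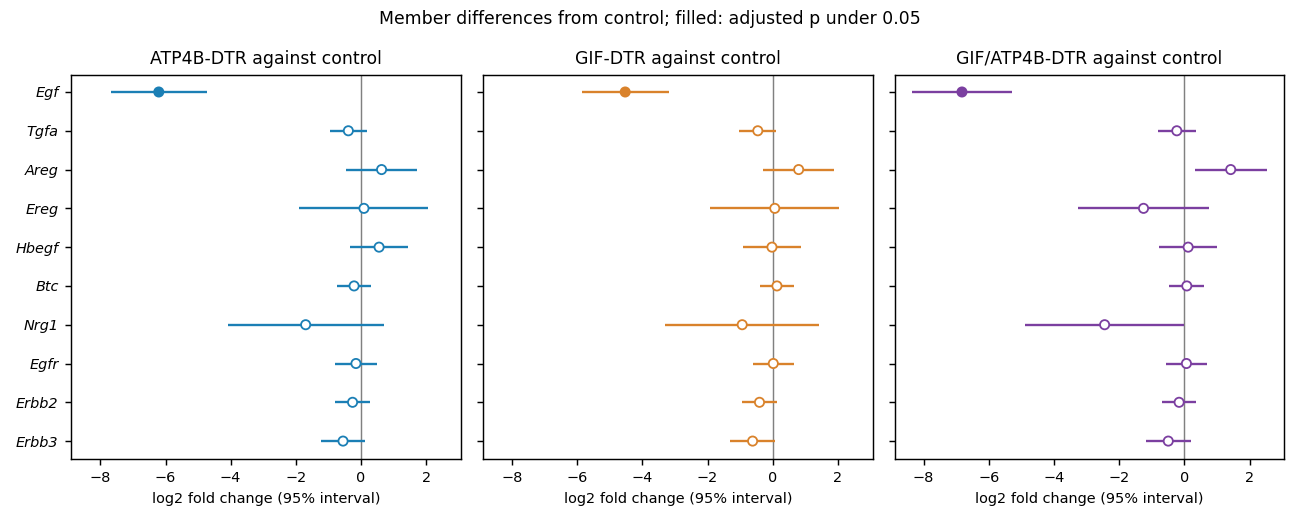
Log2 difference from control (horizontal axis) of each of the 10 genes in the 3 lines, with 95% confidence intervals as bars and filled points where the adjusted p passed the threshold. The 3 Egf points lie between -6.82 and -4.53, and apart from Egf, only Areg and Nrg1 in GIF/ATP4B-DTR have intervals that exclude 0, without passing the adjusted test.

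To compare genes with each other, CPM was divided by the length of the principal transcript, so that the shares below are per kb. The controls had no single dominant ligand: Egf held 21 and 30.4% of the summed ligand level, Areg 23.2 and 24.0%, Tgfa 18.7 and 19.0%, and Btc 16.0 and 18.2%. In the lines Areg was the largest on average, with 43.0 ± 5.53% in the ATP4B-DTR line, 44.9 ± 12.5% in the GIF-DTR line and 57.5 ± 1.62% in GIF/ATP4B-DTR (SD, n = 3 each). Egf was down to 0.479 ± 0.244%, 1.44 ± 0.577% and 0.207 ± 0.160%. The Areg share was above both controls in all 9 libraries of the lines (32.6% or more), and part of this follows from the loss of Egf from the sum. With Egf left out of the sum, a choice made after the values were seen, Areg held 34.4 and 29.3% in the controls and was above both in 8 of the 9 libraries, the other being GIF-DTR 3 at 33.3%. The summed ligand level was 55.3 and 90.9 CPM per kb in the controls and overlapped them in each line, with means of 61.1 ± 17.1, 63.7 ± 18.9 and 80.6 ± 10.4 CPM per kb.

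**Figure D4:**
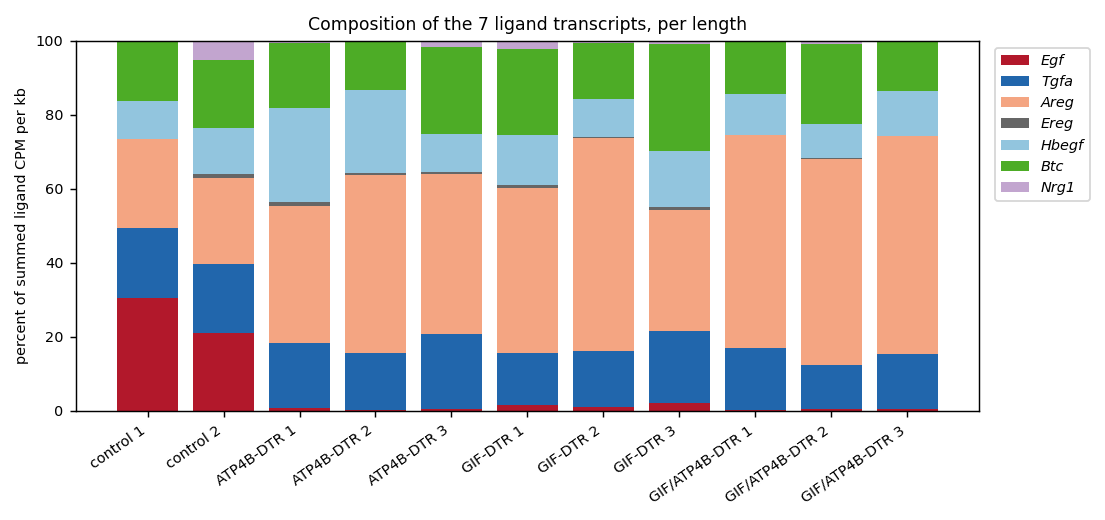
Share of each of the 7 ligands in the summed ligand CPM per kb of principal transcript (percent, vertical axis), as 1 stacked bar per library. Egf fills 21 and 30.4% of the bars of the controls and at most 1.99% of any bar of the lines, where Areg takes 32.6% or more.

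These shares depend on the length chosen. With the union of all exons as the length, Egf held 16.6% and Areg 36.1% of the ligand sum in the controls, so Areg was then the largest ligand there as well. The summed ligand level was then 36.1 and 59.5 CPM per kb in the controls and 60.8 to 77.9 in GIF/ATP4B-DTR, where it no longer overlapped the controls. Among the receptors, again per kb of principal transcript, Erbb3 held 57.3 ± 1.05% of the summed level in the controls and 50.6 to 52.2% on average in the lines. On the same length, Erbb2 held 36.0 ± 1.14% and 38.2 to 40.2%, and Egfr 6.78 ± 0.09% and 8.15 to 9.58%.

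The genes whose log2 CPM followed each member most closely over the 11 samples were looked up among 9176 well-expressed genes. As description only, since samples of a group share their genotype, Egf was most like Ppp2r1b (Pearson r = 0.976), Gramd1b (0.968) and Qsox2 (0.967). Areg was most like Rnf186 (0.962), Anxa2 (0.954) and Sdcbp2 (0.942), and Tgfa like Pip4k2c (0.980), Nipal2 (0.964) and Slc45a3 (0.958). For Nrg1 the closest were Dpt (0.937), Fgfr2 (0.918) and Gpx3 (0.909), of which Dpt encodes the matrix protein dermatopontin, and for Ereg they were Gyg (0.940), Fn1 (0.927), the gene of fibronectin, and Ehd2 (0.879). Btc was closest to Daxx (0.913), Hbegf to Hs3st1 (0.881), Egfr to Hivep2 (0.968) and Erbb3 to Scap (0.972), a sterol-sensing escort protein in the control of lipid synthesis. Erbb2 was closest to Sc5d (0.952), an enzyme of cholesterol synthesis, Pxmp4 (0.950) and Erbb3 (0.945), the highest value between any 2 of the 10 genes. The next highest pair was Tgfa with Erbb3 (0.809).

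Around the receptors, 64 further genes of the pathway in 6 lists were read in the same fit, of which 60 were tested. Against control, 13 of the 60 were called in ATP4B-DTR (4 higher and 9 lower), 10 in GIF-DTR (4 and 6) and 21 in GIF/ATP4B-DTR (8 and 13). These are 21.7%, 16.7% and 35% of the 60, close to the 21.6%, 16.8% and 33.6% over all tested genes. With the Y-linked value in the fit, 6 were called in ATP4B-DTR and 0 in GIF-DTR against control, and DESeq2 called 20 in the GIF-DTR line. Calls over all tested genes moved in the same directions. In ATP4B-DTR they went from 1813 higher and 1398 lower to 1185 and 763 with the Y-linked value. In GIF-DTR they went from 1485 and 1015 to 353 and 126 with that value, and to 1849 and 1509 with DESeq2. Among the lines, 1 of the 60 was called, in GIF/ATP4B-DTR against GIF-DTR.

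**Figure D5:**
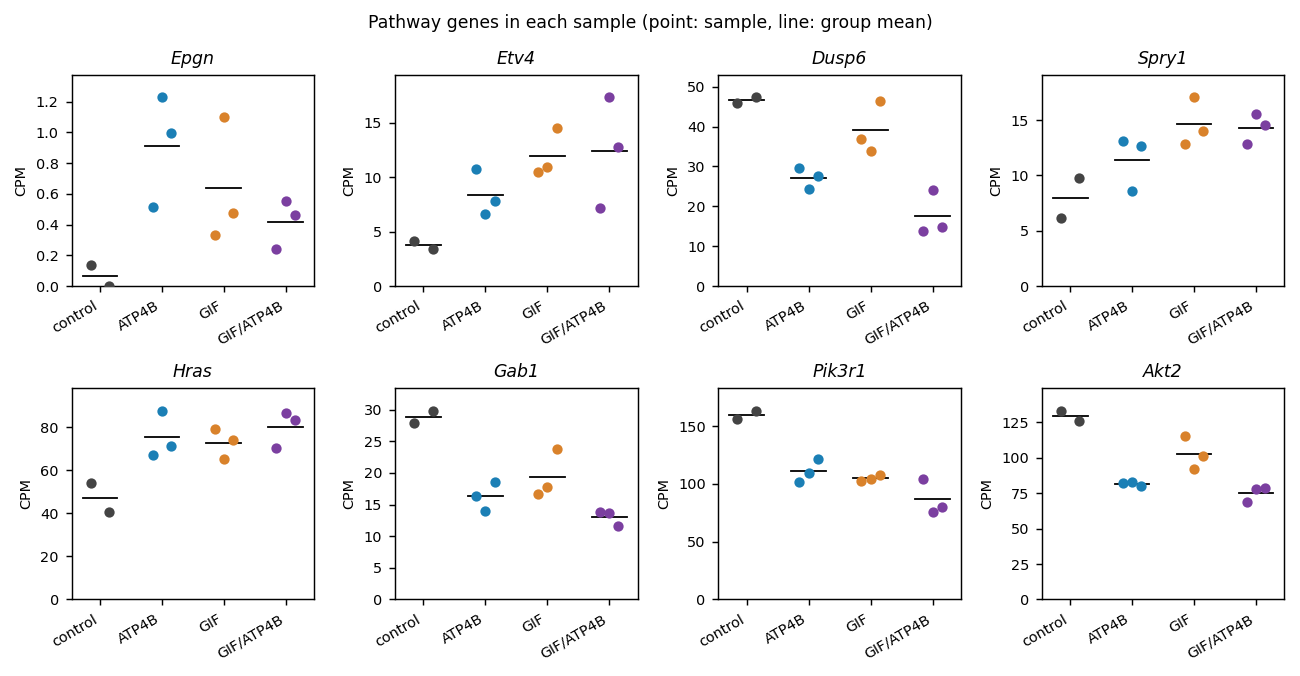
Level of 8 pathway genes in every sample (CPM on the vertical axis), chosen among those called after their values were seen, with samples as points and group means as lines. Hras and Etv4 sit above the controls in the lines, Gab1 and Pik3r1 below them, and Dusp6 is lowest in GIF/ATP4B-DTR.

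Among the 17 receptor adaptors and MAPK cascade genes, the small GTPase Hras rose in every line, by 0.67 ± 0.17, 0.62 ± 0.17 and 0.76 ± 0.17 on the log2 scale in the order ATP4B-DTR, then GIF-DTR, then GIF/ATP4B-DTR. The docking protein Gab1 fell by 0.83, 0.57 and 1.15. The kinase Braf was called lower in all 3 lines, and the exchange factor Sos2 in ATP4B-DTR and GIF/ATP4B-DTR. Sos1, outside the naming rule and listed after its values were seen, was also called lower in GIF/ATP4B-DTR. The median log2 difference of the list was -0.18, -0.20 and -0.20.

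Of 8 genes of PI3K and AKT, 0 were called higher and 2, 1 and 3 were called lower in the lines by edgeR, where 12.2%, 9.97% and 18.2% of all tested genes were called higher and 9.39%, 6.82% and 15.4% lower. The median log2 difference of this list was -0.24, -0.30 and -0.32. Pik3r1, the regulatory subunit, fell by 0.53, 0.61 and 0.89 on the log2 scale in the 3 lines, Akt2 by 0.67 in ATP4B-DTR and 0.79 in the GIF/ATP4B-DTR line, and the catalytic subunit Pik3ca by 0.51 in the GIF/ATP4B-DTR line. Pik3r1 counts were fractional in 10 of 11 libraries. Of 6 tested shedding genes, Rhbdf1, encoding an inactive rhomboid that escorts the main sheddase, fell by 0.69 in ATP4B-DTR. The protease gene Adam9 fell by 0.72 in GIF-DTR and 0.59 in the GIF/ATP4B-DTR line, and Rhbdf2 rose by 0.81 in the GIF/ATP4B-DTR line.

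Of 13 feedback inhibitors, the ubiquitin ligase Cbl, which removes activated receptors, fell by 0.56, 0.68 and 0.68 on the log2 scale in the 3 lines, with fractional counts in 9 of 11 libraries. Its relative Cblb fell by 0.67 in ATP4B-DTR and 0.85 in the GIF/ATP4B-DTR line, Spred2 fell by 0.48 in the GIF-DTR line, and Spry1 rose by 0.88 in GIF-DTR and 0.85 in the GIF/ATP4B-DTR line.

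Of 14 genes commonly used as readouts of ERK activity, 1 was called higher and 1 lower in ATP4B-DTR, 1 higher and 0 lower in GIF-DTR, and 4 higher and 2 lower in GIF/ATP4B-DTR, beside the shares over all tested genes given above for each direction. The median log2 difference of this list was 0.38, 0.35 and 0.34, beside -0.01, -0.01 and -0.04 over all tested genes. Etv4, a transcription factor, was at 4.18 and 3.38 CPM in the controls, 10.8, 6.67 and 7.83 in the ATP4B-DTR line, 10.5, 11 and 14.5 in the GIF-DTR line, and 7.14, 17.4 and 12.8 in the GIF/ATP4B-DTR line. Every library of the lines was above both controls, and Etv4 rose by 1.15 ± 0.35, 1.66 ± 0.36 and 1.71 ± 0.36 on the log2 scale (edgeR, adjusted p = 0.0382, 0.0118 and 0.00393). Dusp6, the ERK phosphatase, was at 45.8 and 47.3 CPM in the controls, 29.6, 24.3 and 27.7 in the ATP4B-DTR line, 36.9, 33.8 and 46.5 in the GIF-DTR line, and 13.8, 24.1 and 14.7 in the GIF/ATP4B-DTR line. It fell in ATP4B-DTR by 0.78 ± 0.22 (edgeR, adjusted p = 0.0278) and in GIF/ATP4B-DTR by 1.41 ± 0.22 (adjusted p = 0.000789). It also fell by 1.16 ± 0.20 from GIF-DTR to GIF/ATP4B-DTR (edgeR, adjusted p = 0.0117), the only pathway gene called among the lines, and this call was lost without GIF-DTR 3 and without GIF/ATP4B-DTR 3. In GIF/ATP4B-DTR, Plaur rose by 1.20 and Etv1 fell by 1.71, the latter with fractional counts in 10 of 11 libraries. Etv1 was at 1.98 and 8.26 CPM in the 2 controls. With 1.13, 1.75 and 1.78 CPM in GIF/ATP4B-DTR, control 1 was close to that line, and the fall rests largely on control 2. Ccnd1 and Myc, which drive cell division, were also called higher there, Ccnd1 with fractional counts in 11 of 11 libraries; both are named after their values were seen. The sum of 8 proliferation markers was 233 to 319 CPM in the controls and 542 to 878 CPM in the 9 libraries of the lines.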

How the data were processed

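Polyadenylated RNA of 11 corpus mucosa samples was sequenced from stranded libraries, per the labels' protocols. The deposited table holds expected counts per gene, estimated by the authors (30.7% of nonzero entries are fractional); the reads had been mapped to mm10, per the submitters' processing notes, and the aligner and counter are not given in the sources used here. All columns were used. Gene identifiers were matched without version to symbols of the mouse GENCODE release M21 (34582 of 34866, 99.2%).

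The expected counts were rounded and tested in R 4.3.3 with edgeR 4.0.16 (TMM scaling, filterByExpr, robust quasi-likelihood fit over all 11 samples with 1 coefficient per group, Benjamini-Hochberg adjustment over 14889 genes, threshold 0.05; common biological coefficient of variation 26.6%). The test had been planned for counts and the file turned out to hold expected counts. The procedure was checked on simulated data. DESeq2 1.42.0 and other alternatives were run, as listed in the closing section.

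The members and gene lists were chosen with earlier results of these data known. Named were the 10 members, the targeted genes, the other family genes, at most 4 called genes of each pathway list per comparison by size of the log2 difference, and the 3 genes most correlated with each member (mean of at least 8 CPM, prior count 2). Promoter windows of 250 bases are from RefSeq. Replicate numbers of the lines follow accession order and pair nothing. Library totals of 20689262 to 27946423 counts set the precision. Some genes of the pathway lists are counted but not reported here by name.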

Additional observations from a re-analysis of the deposited data

How the results depend on the processing

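Egf was lower than control under each alternative that tested it, and kept its call except in GIF-DTR with the Y-linked covariate, where the log2 difference was -4.09 (adjusted p = 0.102, edgeR) and 0 genes of the family were called. A filter of at least 10 counts in every sample removed Egf itself, because 1 library had 2 counts, so that 0 were called in ATP4B-DTR and in GIF-DTR against control, and Areg took its place in GIF/ATP4B-DTR (adjusted p = 0.0408). In GIF/ATP4B-DTR against control, 2 were called with DESeq2's size factors, TMM without the 50 most abundant genes, DESeq2, no robust moderation, the Y-linked covariate, and only the groups compared, Areg being the added gene; leaving out single replicates gave 1 to 2. DESeq2 called 1 in GIF/ATP4B-DTR against GIF-DTR and 1 in the interaction, and leaving out replicates gave 0 to 1 in the interaction. Leaving out replicates gave 1 call in each of the other comparisons with control and 0 in those among the lines.

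Pathway genes called fell from 13 to 6 in ATP4B-DTR and from 10 to 0 in GIF-DTR with the Y-linked covariate, and from 1 to 0 in GIF/ATP4B-DTR against GIF-DTR. Calls over all tested genes fell with this covariate too. They fell to 1185 higher and 763 lower in ATP4B-DTR and to 353 and 126 in GIF-DTR. In GIF/ATP4B-DTR against GIF-DTR they fell from 50 and 326 to 1 and 14. DESeq2 gave 20 in GIF-DTR against control, 1 for GIF/ATP4B-DTR against ATP4B-DTR, 3 in GIF/ATP4B-DTR against GIF-DTR and 2 in the interaction. In GIF/ATP4B-DTR against GIF-DTR, 2 were called without the 50 most abundant genes in the scaling and 2 with the filter of 10 counts. Leaving out single replicates gave 4 to 10 in ATP4B-DTR (4 without control 2), 2 to 7 in GIF-DTR (2 without control 2), 11 to 18 in GIF/ATP4B-DTR (11 without control 2), 0 to 1 for GIF/ATP4B-DTR against ATP4B-DTR, and 0 to 1 in GIF/ATP4B-DTR against GIF-DTR. Leaving out single replicates also changed the number of calls over all tested genes in each comparison with control. The cause of these changes was not tested.

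Some differences that did not pass the test with all samples changed sign. With the Y-linked covariate they were 0.044 for Hbegf, -0.36 for Btc and -0.65 for Egfr in GIF-DTR against control, -0.019 for Areg, 0.13 for Ereg and -0.013 for Egfr in GIF-DTR against ATP4B-DTR, 0.37 for Nrg1 in GIF/ATP4B-DTR against ATP4B-DTR, 0.46 for Btc in GIF/ATP4B-DTR against GIF-DTR and 1.20 for Areg in the interaction. The Areg interaction was 0.0077 with DESeq2's size factors and 0.0054 with DESeq2. Over the fits without 1 replicate, the ranges that crossed 0 were as follows. In ATP4B-DTR against control they were those of Btc (-0.46 to 0.082), Egfr (-0.40 to 0.14), Ereg (-0.76 to 2.27), Nrg1 (-2.78 to 0.92) and Tgfa (-0.71 to 0.031). For GIF-DTR against control these were Btc (-0.11 to 0.43), Egfr (-0.27 to 0.31), Ereg (-0.78 to 2.24), Hbegf (-0.22 to 0.21) and Nrg1 (-1.82 to 1.68). For GIF/ATP4B-DTR against control these were Btc (-0.17 to 0.37), Egfr (-0.18 to 0.36), Erbb2 (-0.37 to 0.078), Ereg (-2.10 to 0.92), Hbegf (-0.10 to 0.35), Nrg1 (-3.56 to 0.17) and Tgfa (-0.56 to 0.19). For GIF-DTR against ATP4B-DTR these were Areg (-0.24 to 0.53), Egfr (-0.11 to 0.33), Erbb2 (-0.24 to 0.025), Erbb3 (-0.24 to 0.20), Ereg (-0.52 to 0.36), Nrg1 (-0.11 to 1.84) and Tgfa (-0.21 to 0.059). For GIF/ATP4B-DTR against ATP4B-DTR these were Egfr (-0.0195 to 0.37), Erbb2 (-0.10 to 0.30), Erbb3 (-0.17 to 0.32), Nrg1 (-1.86 to 0.33) and Tgfa (-0.013 to 0.33). For GIF/ATP4B-DTR against GIF-DTR these were Btc (-0.22 to 0.12), Egfr (-0.13 to 0.33), Erbb3 (-0.11 to 0.35) and Hbegf (-0.073 to 0.30). For the interaction these were Areg (-0.44 to 0.40), Btc (-0.14 to 0.40), Egfr (-0.092 to 0.48), Hbegf (-0.75 to 0.0087) and Nrg1 (-2.43 to 1.26). 

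Only 2 controls entered every comparison with the lines, and where 1 was left out the lone control was assumed to vary like the other groups. No paired analysis was possible because only the controls carry replicate numbers in the labels. The interaction needs all 4 groups, so that no fit with only the groups compared was run for it. The lengths by union of exons and the Areg share without Egf were added after seeing the data. At these depths, levels of Ereg, Nrg1 and Epgn rest on few counts.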
